A study of Mus musculus with 12 samples.

Results

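Expression of 10 genes of branched-chain amino acid breakdown was followed in the heart ventricles and the epididymal fat of mice that overexpress MED13 in the heart. They were Bcat1, Bcat2, Bckdha, Bckdhb, Dbt, Bckdk, Ppm1k, Ivd, Mccc1 and Mccc2, listed by name, and all 10 were found among the 23011 named entries of each tissue's expression table. RNA was sequenced from ventricles and from epididymal white adipose tissue (EWAT) of 3 wild-type (WT) and 3 transgenic mice, giving 12 libraries in 4 groups. All mice were male littermates on the C57BL/6 strain, 6 weeks old according to the labels, fed normal chow freely and sampled in the late afternoon. The transgenic mice (MED13cTg, labelled TG) carry a cardiac MED13 transgene, so in EWAT the comparison is of fat from mice whose transgene is meant for the heart. MED13 is a subunit of the kinase module of Mediator, the complex that links transcription factors to RNA polymerase II. The labels name neither the promoter of the transgene nor whether the ventricles and the fat came from the same mice. Expression was given in FPKM, the number of sequenced fragments of a gene scaled to its transcript length and to the mapped fragments of the library.

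Leucine, isoleucine and valine are broken down in mitochondria along a shared route. An aminotransferase (BCAT1 in the cytosol, BCAT2 in mitochondria) first converts each one into its keto acid, and the branched-chain keto acid dehydrogenase complex (BCKDH) then commits it to oxidation. BCKDH is switched off when the kinase BCKDK phosphorylates its E1 alpha subunit and switched on when the phosphatase PPM1K removes the phosphate. Beyond it the 3 amino acids follow separate arms that end in acetyl-CoA, acetoacetate or propionyl-CoA. Heart muscle oxidizes branched-chain keto acids, and fat cells raise expression of this route as they mature.

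The labels of the libraries were checked with Med13, which was at 13.1, 10.6 and 11.5 FPKM in WT ventricles and at 263, 181 and 204 FPKM in MED13cTg ventricles (log2 fold change 4.08, adjusted p = 0.000273 by limma). In EWAT Med13 was at 9.43 to 10.9 FPKM in the WT mice and 7.84 to 11.03 FPKM in MED13cTg mice. Ventricle libraries were alike, with rank correlations of 0.944 to 0.969 between any pair, and 8 cardiomyocyte markers summed to 66519 to 94768 FPKM. The sum of 6 atrial markers was 469 to 775 FPKM in the WT mice and 1016 to 2471 FPKM in MED13cTg ventricles, with Bmp10 listed at 0 in at least 1 library. Nppa, the gene of atrial natriuretic peptide, carried the lack of overlap, and the other 5 summed to 211, 109 and 101 FPKM in WT and to 124, 698 and 92.3 FPKM in MED13cTg ventricles. In EWAT 2 libraries stood apart. Rank correlations between WT EWAT libraries were 0.958 to 0.973, whereas those of MED13cTg replicate 1 with the other 5 libraries were 0.351 to 0.494 and those of MED13cTg replicate 2 were 0.351 to 0.854. The sum of 13 adipocyte markers, all above 0 in every EWAT library, was 13761, 32836 and 22499 FPKM in WT replicates 1, 2 and 3 and 1600, 82042 and 17772 FPKM in MED13cTg replicates 1, 2 and 3. The sum of 18 genes of the epididymis, the sperm duct that adjoins this fat, was 90151 to 115556 FPKM in the WT EWAT libraries, more than that of the adipocyte markers, and 15169, 301 and 90203 FPKM in the 3 MED13cTg libraries, where Defb2 was listed at 0 in MED13cTg replicate 2. The sum of 7 germ cell markers was 13638 FPKM in MED13cTg replicate 1, 5.83 FPKM in replicate 2 and 213 to 344 FPKM elsewhere. In such bulk samples fewer cells of a type and less RNA per cell cannot be told apart.

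In ventricles, the mean of each of the 10 genes was lower in MED13cTg mice, and none of the differences passed the test. In 6 of the 10, Bckdha, Bckdhb, Dbt, Ppm1k, Ivd and Mccc1, the MED13cTg mean was between 0.703 and 0.734 of the WT mean. The median log2 difference over all 10 was -0.45, beside -0.014 over the 12576 genes tested. Of the tested genes, 53.3% had a mean difference below 0. At an adjusted p under 0.05 (limma on log2(FPKM + 1), Benjamini-Hochberg adjustment over all genes tested) 0 of the 9 members tested were called, against 0.0557% of all genes. Bcat1 averaged under 1 FPKM and was not tested. At an unadjusted p under 0.05, 3 members were lower (Bckdha, Bckdhb and Ppm1k) and 0 higher, against 3.04% of all genes lower and 1.69% higher. The count of 3 was 2 without the filter, 7 with array weights, 5 without WT replicate 1, 2 without WT replicate 3 and 2 without MED13cTg replicate 1. The count over all genes moved too, from 382 lower and 212 higher of 12576 in the main fit. It was 645 and 482 of 23011 without the filter and 1861 and 1637 of 12576 with array weights. Without WT replicate 1 it was 826 and 657 of 12550, and without WT replicate 3 it was 243 and 122 of 12605. Without MED13cTg replicate 1 it was 189 and 113 of 12506. Every MED13cTg library lay below every WT library in 2 members, Bckdha and Ppm1k, against 5.85% of all genes. Nppa was higher without overlap in the same MED13cTg libraries, at 892, 1773 and 1088 FPKM beside 564, 408 and 368 FPKM, while the sum of the other 5 atrial markers overlapped. The sum of 6 skeletal muscle markers was lower without overlap, at 2684 to 3049 FPKM beside 3257 to 3585 FPKM in WT ventricles. Most of it was Ckm, the only marker of this list whose own groups did not overlap. The ratio of the MED13cTg mean to the WT mean was 0.86 for Ckm, 0.79 for Acta1, 0.91 for Tnnt3 and 0.94 for Myh4. It was 1.11 for Mylpf and 1.21 for Myh1, which was under 1 FPKM, so the markers of this list did not move together. The part of the atrial or the skeletal muscle markers in the members' differences was not tested.

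**Figure D1:**
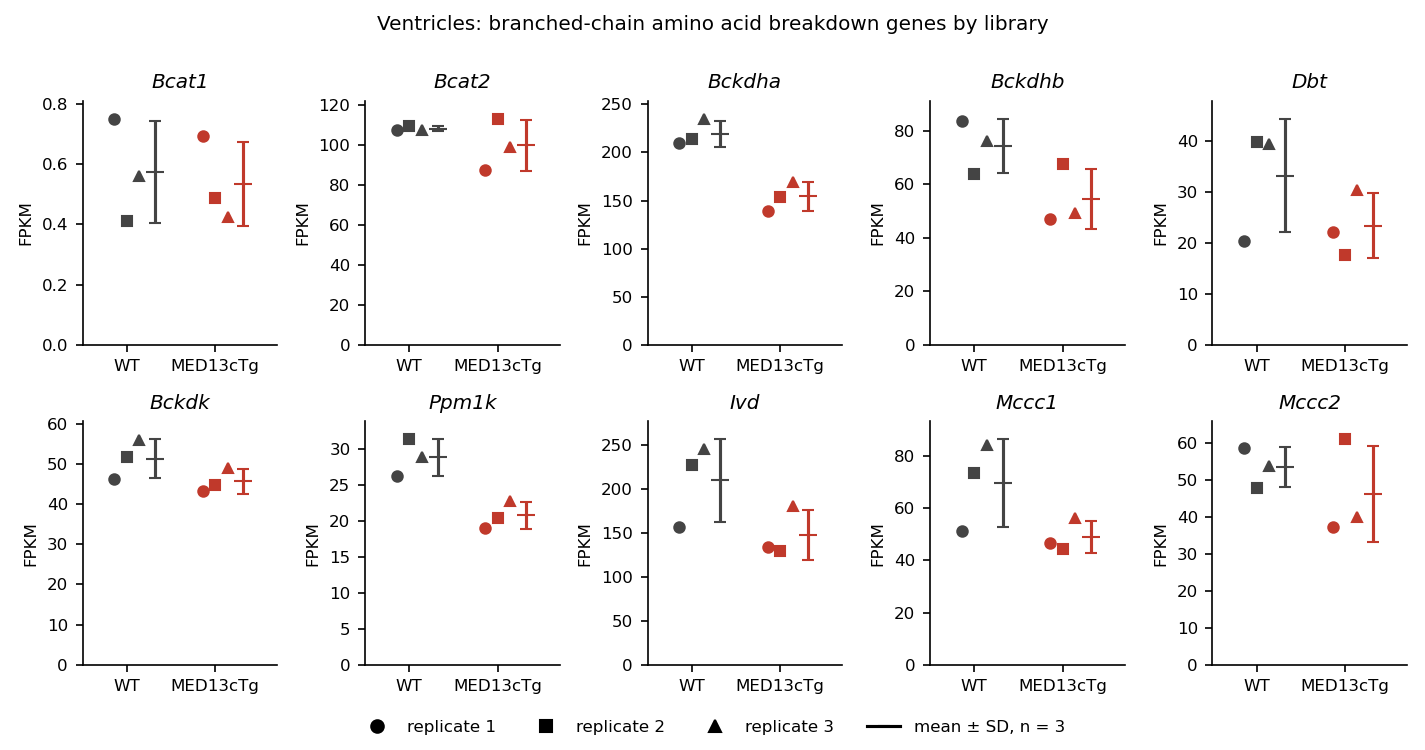
FPKM of the 10 genes in each ventricle library on linear axes that start at 0, with 3 WT and 3 MED13cTg (TG) mice as points and the group mean ± SD as bars. Bckdha and Ppm1k are the genes in which all 3 MED13cTg points lie below all 3 WT points.

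The E1 alpha subunit of BCKDH, which BCKDK phosphorylates, is encoded by Bckdha (mm9 chr7:26412642-26443780, an interval the table also gives to B3gnt8). Bckdha was at 210, 214 and 235 FPKM in WT ventricles and at 139, 154 and 170 FPKM in MED13cTg ventricles. The groups did not overlap, and the means were 219.5 ± 13.5 and 154.2 ± 15.3 FPKM (SD, n = 3 mice each). The log2 fold change was -0.51 with a standard error of 0.13 and a 95% interval of -0.81 to -0.21 (unadjusted p = 0.00546, limma adjusted p = 0.928).

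Ppm1k (mm9 chr6:57456495-57485420) encodes the mitochondrial phosphatase that turns BCKDH on. Ppm1k was at 26.3, 31.3 and 28.8 FPKM in the WT mice and at 19.0, 20.4 and 22.8 FPKM in MED13cTg ventricles, again without overlap. The log2 fold change was -0.45 with a standard error of 0.12 and a 95% interval of -0.73 to -0.18 (unadjusted p = 0.00628, limma adjusted p = 0.944). The lowest adjusted p of any member under any alternative setting was 0.0747, for Ppm1k with limma array weights.

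The E1 beta subunit and the E2 core of the complex varied more between mice. Bckdhb, the E1 beta gene, was at 83.5, 63.7 and 76.0 FPKM in the WT mice and at 47.2, 67.6 and 49.2 FPKM in MED13cTg ventricles. MED13cTg replicate 2 lay within the WT range and the other two lay below it (log2 fold change -0.45, standard error 0.18, unadjusted p = 0.0405, limma adjusted p = 0.966). Dbt, the E2 gene that forms the core of BCKDH, was at 20.4, 39.8 and 39.5 FPKM in the WT mice and at 22.2, 17.6 and 30.3 FPKM in MED13cTg ventricles. WT replicate 1 was here as low as the MED13cTg libraries, and the log2 fold change of -0.46 had a standard error of 0.30.

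The kinase Bckdk, which turns BCKDH off, shares its entry in the tables with Myst1 and its interval with Prss8, so its level is uncertain. That entry was at 46.3, 51.6 and 55.9 FPKM in the WT mice and at 43.2, 44.7 and 49.1 FPKM in MED13cTg ventricles, with overlapping groups (log2 fold change -0.16, standard error 0.12). Kinase and phosphatase were also compared within each library, which leaves out most of the effect of library scaling. The FPKM ratio of the Bckdk entry to Ppm1k was 1.76, 1.65 and 1.94 in WT and 2.27, 2.19 and 2.15 in MED13cTg ventricles. The ratio was above all WT values in 3 of 3 MED13cTg mice, and the log2 ratio, computed from FPKM + 1, was higher by 0.29. The exact two-sided permutation p was 0.1, the smallest that 3 against 3 libraries can give, and 0.2 after adjustment over the 2 tissues.

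The aminotransferases, which act before BCKDH, gave small differences. Bcat2, the mitochondrial form, was at 108, 110 and 108 FPKM in the WT mice and at 87.6, 113 and 99.2 FPKM in MED13cTg ventricles, and the 95% interval of its log2 fold change, -0.42 to 0.18, spans 0. Bcat1, the cytosolic form, was at 0.751, 0.412 and 0.563 FPKM in the WT mice and at 0.693, 0.490 and 0.425 FPKM in MED13cTg ventricles. These are low values of little precision, and the sign of the Bcat1 difference turned without WT replicate 1, without MED13cTg replicate 3 and with array weights.

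In the leucine arm, Ivd encodes the dehydrogenase that acts directly after BCKDH, and Mccc1 and Mccc2 encode the alpha and beta subunits of the biotin-dependent methylcrotonyl-CoA carboxylase. Ivd was at 157, 226 and 245 FPKM in the WT mice and at 133, 130 and 180 FPKM in MED13cTg ventricles. WT replicate 1 again fell among the MED13cTg libraries (log2 fold change -0.49, standard error 0.22). Mccc1 (whose interval in the table is shared with Acad9 and other entries) was at 51.3, 73.3 and 84.0 FPKM in the WT mice and at 46.6, 44.4 and 56.0 FPKM in MED13cTg ventricles, with the same library low (log2 fold change -0.47, standard error 0.20). Mccc2 was at 58.6, 47.9 and 53.7 FPKM in the WT mice and at 37.2, 60.9 and 40.0 FPKM in MED13cTg ventricles. Here WT replicate 1 was not low, MED13cTg replicate 2 was the highest of the 6, and the log2 fold change was -0.24 with a standard error of 0.20.

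**Figure D2:**
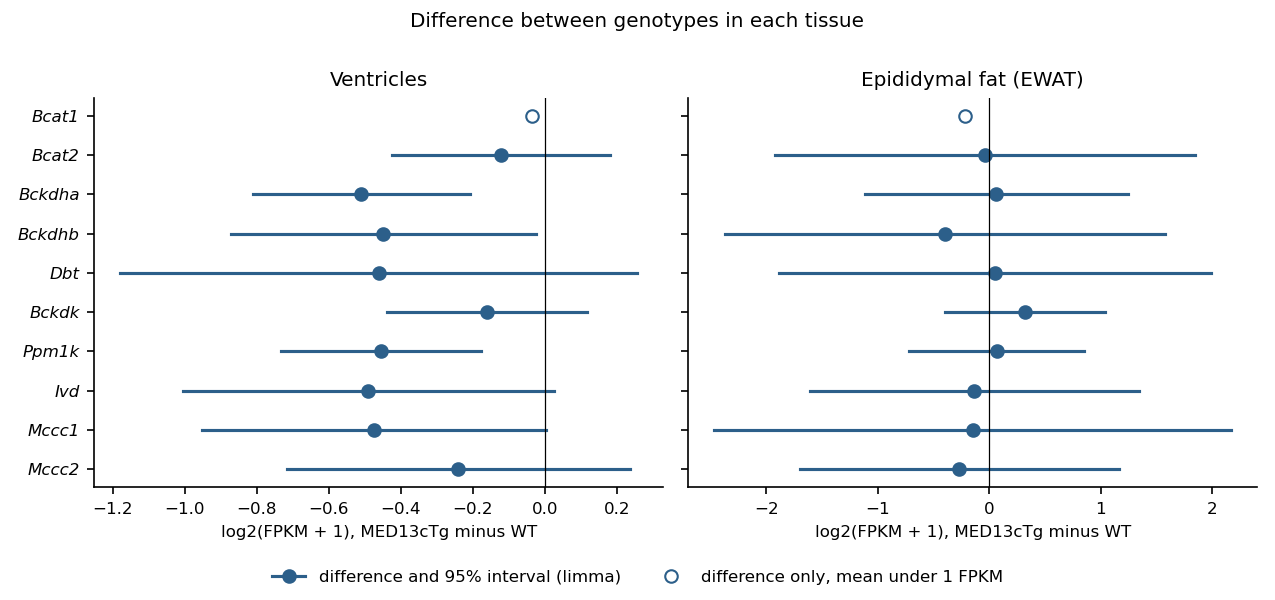
Log2 fold change of MED13cTg over WT for each member in ventricles and EWAT, on log2(FPKM + 1), with 95% intervals from limma. The x ranges of the panels differ, Bcat1 (open symbol) was not tested and has no interval, and in ventricles the intervals of Bckdha, Ppm1k and Bckdhb lie below 0.

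The ventricle libraries were also read in 2 sets known from earlier results of these data, WT replicate 1 with MED13cTg replicates 1 and 2, and WT replicates 2 and 3 with MED13cTg replicate 3. The labels name no batch that separates them. Within each set the mean of all 10 members was lower in MED13cTg mice, with median log2 differences of -0.21 and -0.38. These came from 1 WT mouse against 2 MED13cTg mice and 2 against 1, and were not tested set by set. The share of all genes that were lower within each set was not computed, so the counts have no background beside them. Bckdha differed by -0.52 and -0.40, Ppm1k by -0.40 and -0.38 and Bckdhb by -0.56 and -0.49 on the log2 scale. Dbt differed by -0.04 in the first set and -0.38 in the second, Ivd by -0.25 and -0.38, and Mccc1 by -0.17 and -0.48. With the set as a covariate in limma the median over the 10 genes was -0.32, 0 were called, and 5 had an unadjusted p under 0.05. Over all genes 673 were lower and 292 higher at that unadjusted p, beside 382 and 212 without the covariate.

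**Figure D3:**
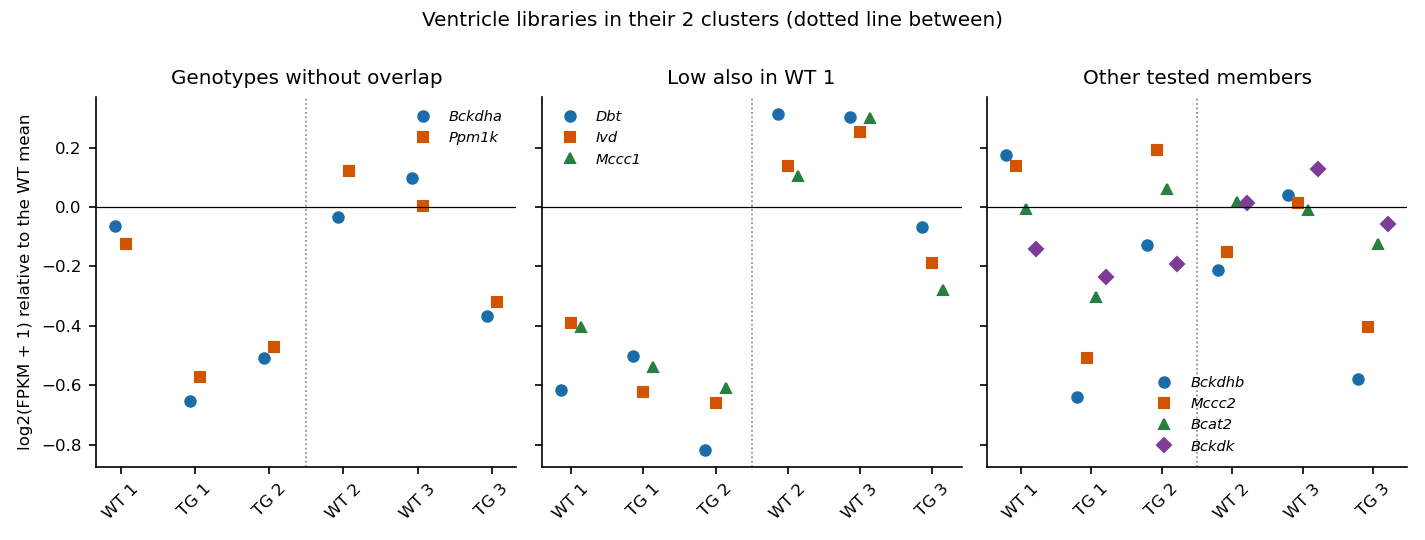
Log2(FPKM + 1) relative to the WT mean in the 6 ventricle libraries, arranged by set with a dotted line between the sets, 1 point per library. Bckdha and Ppm1k are lower in every MED13cTg (TG) library of either set, whereas Dbt, Ivd and Mccc1 are also low in WT 1.

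Promoter sequences are shown for the 2 members whose groups did not overlap in ventricles and for the 3 genes of the leucine arm. RefSeq sequences (build GRCm38.p6) matched 9 of the 10 members at 12 start sites, and Dbt was not matched. Each run below holds the 250 bases before a start, 5′ to 3′ on the gene's strand, with matches to CCAAT or its reverse complement ATTGG in capitals. They lie at chr7:25658762-25659011 (minus strand) for Bckdha, chr6:57535488-57535737 (minus) for Ppm1k, chr2:118861744-118861993 (plus) for Ivd, chr3:36000679-36000928 (minus) for Mccc1 and chr13:100015640-100015889 (minus) for Mccc2.
Bckdha: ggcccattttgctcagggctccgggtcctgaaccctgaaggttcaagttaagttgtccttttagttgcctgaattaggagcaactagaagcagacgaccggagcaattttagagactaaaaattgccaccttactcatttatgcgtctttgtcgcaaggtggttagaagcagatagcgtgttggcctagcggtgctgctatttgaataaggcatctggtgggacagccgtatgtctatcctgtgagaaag
Ppm1k: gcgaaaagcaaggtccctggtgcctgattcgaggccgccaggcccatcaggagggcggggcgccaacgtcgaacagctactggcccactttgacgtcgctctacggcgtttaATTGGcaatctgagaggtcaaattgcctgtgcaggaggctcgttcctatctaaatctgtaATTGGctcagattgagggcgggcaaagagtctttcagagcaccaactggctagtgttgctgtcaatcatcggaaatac
Ivd: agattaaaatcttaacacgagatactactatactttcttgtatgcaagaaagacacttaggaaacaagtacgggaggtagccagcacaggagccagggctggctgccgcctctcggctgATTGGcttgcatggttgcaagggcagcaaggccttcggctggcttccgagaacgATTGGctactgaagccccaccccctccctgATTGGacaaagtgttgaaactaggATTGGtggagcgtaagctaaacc
Mccc1: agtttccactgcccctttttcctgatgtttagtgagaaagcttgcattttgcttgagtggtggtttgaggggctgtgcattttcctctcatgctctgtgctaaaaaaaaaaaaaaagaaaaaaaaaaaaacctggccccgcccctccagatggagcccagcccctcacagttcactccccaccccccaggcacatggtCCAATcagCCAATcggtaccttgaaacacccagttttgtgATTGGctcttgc
Mccc2: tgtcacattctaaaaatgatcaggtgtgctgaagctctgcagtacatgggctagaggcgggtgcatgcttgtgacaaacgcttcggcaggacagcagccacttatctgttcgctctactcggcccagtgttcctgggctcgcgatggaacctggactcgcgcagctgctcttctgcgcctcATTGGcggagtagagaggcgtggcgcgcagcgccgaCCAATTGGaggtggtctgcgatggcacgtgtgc

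These letters, chosen after the sequences had been seen, occurred on either strand in 7 of the 12 start regions, 1 each of 7 genes, and in 33.8% of 32851 mouse promoters of the same length. At least 3 matches were found in Ivd (4), Mccc1 (3) and Mccc2 (3), where overlapping matches on the 2 strands were both counted, and in 2.79% of all promoters. Ppm1k and 1 start of Bckdhb held 2 matches, and Bckdha 0. Like the letters, the cut at 3 was not set before the sequences were seen, so the 2.79% is no test of enrichment. CACCC or its reverse complement GGGTG occurred in 8 of the 12 start regions and in 52% of all promoters. The estrogen-related receptor half-site AAGGTCA or TGACCTT occurred in 0 of 12 and in 4.08% of all promoters. A match is a description of the letters and not a binding site, and its relation to the ventricle differences was not tested.

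The other 22 genes listed for the pathway were read from the same comparison. In ventricles 22 of 22 had a lower mean in MED13cTg mice, beside 53.3% of all genes tested, with a median log2 difference of -0.20. After quantile normalization 21 of 22 did so. The count was 19 of 22 with the library set as a covariate, with array weights and without WT replicate 1. By limma 0 were called. At an unadjusted p under 0.05, 4 were lower (Echs1, Hsd17b10, Hibadh and Aldh6a1), all from the valine and isoleucine arms, against 3.04% of all genes. The groups did not overlap in 2 of the 22, Hsd17b10 and Hibadh, against 5.85% of all genes with every MED13cTg library below. Hsd17b10, a dehydrogenase of the isoleucine arm, was at 208, 218 and 225 FPKM in the WT mice and at 161, 187 and 181 FPKM in MED13cTg ventricles. Hibadh, a dehydrogenase of the valine arm, was at 263, 270 and 296 FPKM in the WT mice and at 228, 232 and 205 FPKM in MED13cTg ventricles. Dld, the E3 subunit that BCKDH shares with other dehydrogenase complexes, was at 230, 339 and 386 FPKM in the WT mice and at 229, 232 and 277 FPKM in MED13cTg ventricles. Like Dbt, Ivd and Mccc1, Dld was low in WT replicate 1.

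The 6 transport genes had a median log2 difference of -0.064 in ventricles. Slc25a44, the mitochondrial carrier of branched-chain amino acids, was at 8.13, 8.85 and 10.01 FPKM in the WT mice and at 8.68, 7.82 and 9.61 FPKM in MED13cTg ventricles. Klf15, a transcription factor known to promote cardiac expression of this pathway, was at 52.6, 73.3 and 58.5 FPKM in the WT mice and at 38.7, 26.1 and 61.3 FPKM in MED13cTg ventricles. MED13cTg replicates 1 and 2 lay below the WT range and replicate 3 within it (log2 fold change -0.61, standard error 0.30, limma adjusted p = 0.966). Without MED13cTg replicate 2 the log2 fold change of Klf15 was -0.32.

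In EWAT the members differed most among the MED13cTg mice themselves, and no difference between genotypes passed the test. Of the 10 genes, 6 had a lower and 4 a higher mean log2 level in MED13cTg fat, with a median log2 difference of -0.084 beside 0.012 over the 14942 genes tested. Of these genes, 49.3% had a mean difference below 0. By mean FPKM the majority was the other way, with 8 of 10 higher in MED13cTg fat, 2 lower (Bcat1 and Mccc2) and a median ratio of 1.16, beside 58.2% of all genes higher. With median-of-ratios scaling 5 were lower and 5 higher, and with quantile normalization 7 and 3. By limma 0 of 9 were called, against 0.0134% of all genes (2 genes, and 0 with the replicate number as a block), and 0 passed an unadjusted p under 0.05, against 1.26%. In 0 of 10 did the groups not overlap, against 4.89% of all genes with every MED13cTg library above and 7.8% with every one below.

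MED13cTg replicate 1 lay below the WT range in 9 of the 10 genes and above it in Bckdk, beside 48.3% of all genes tested below and 44.1% above. MED13cTg replicate 2 lay above the WT range in 9 and within it in Bcat1, beside 38.2% of all genes above and 45.7% below. MED13cTg replicate 3 lay within the WT range in 6, below it in 3 (Bcat2, Bckdk and Ivd) and above it in Bcat1, beside 55.8% of all genes within. The members' median relative to the WT mean was -1.36, 1.05 and -0.13 on the log2 scale in MED13cTg replicates 1, 2 and 3, and -0.17, 0.10 and 0.048 in the WT replicates. Without MED13cTg replicate 1 all 10 were higher in MED13cTg fat with a median of 0.45, and without MED13cTg replicate 2 the mean was lower in 9 of 10 with a median of -0.74. With both left out, 7 of 10 were lower with a median of -0.13, from 1 MED13cTg mouse.

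**Figure D4:**
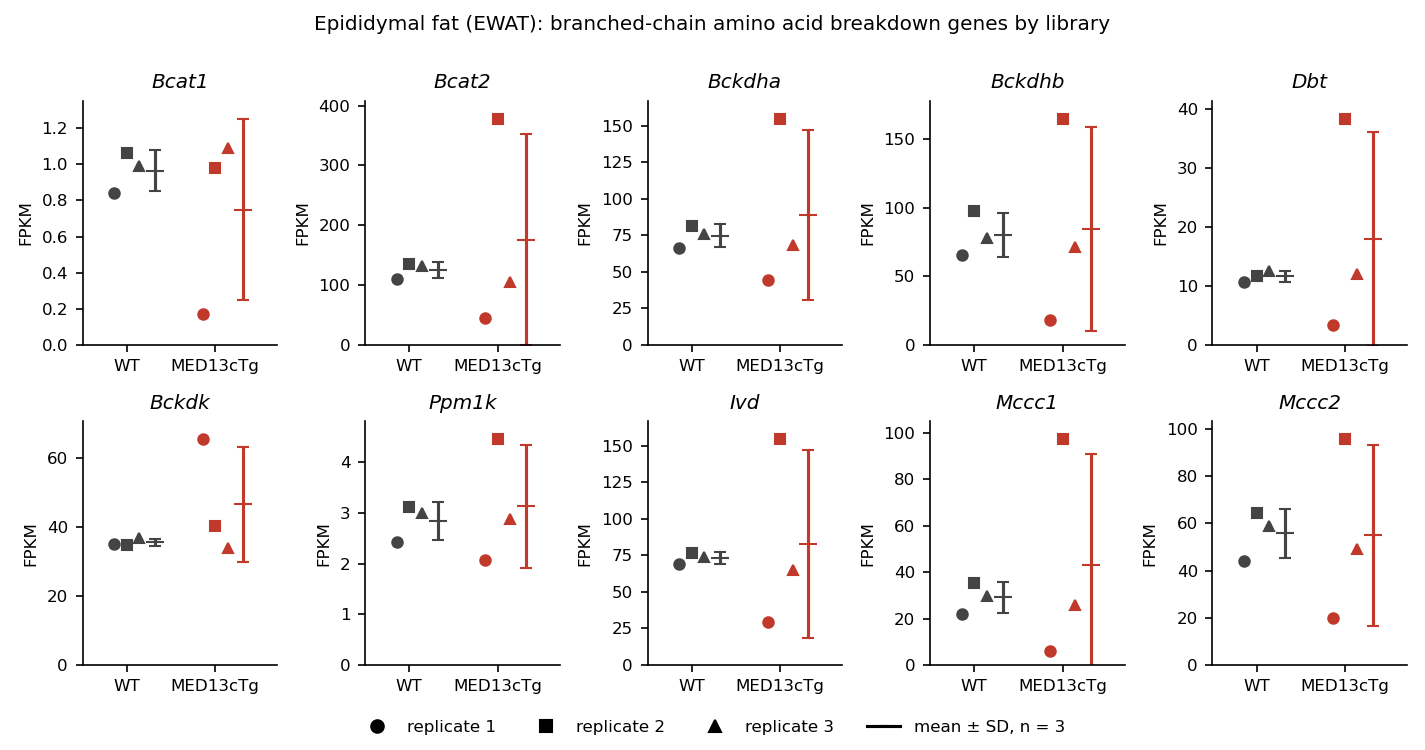
FPKM of the 10 genes in each EWAT library on linear axes that start at 0, with 3 WT and 3 MED13cTg (TG) mice as points and the group mean ± SD as bars, cut at 0 where the SD exceeds the mean. In all 10 genes at least 1 MED13cTg point lies above and at least 1 lies below the WT points.

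Bcat2 showed the widest absolute range, with 110, 135 and 131 FPKM in the WT mice and 45.4, 378 and 105 FPKM in MED13cTg fat. Among the BCKDH subunits, Bckdha was at 66.1, 81.6 and 75.8 FPKM in the WT mice and at 44.3, 155 and 68.1 FPKM in MED13cTg fat. Bckdhb was at 65.1, 97.2 and 77.6 FPKM in the WT mice and at 17.7, 165 and 71.0 FPKM in MED13cTg fat. Both genes thus ran low, high and middle in the same mice. Dbt was at 10.7, 11.7 and 12.5 FPKM in the WT mice and at 3.37, 38.3 and 12.02 FPKM in MED13cTg fat. In the leucine arm, Ivd was at 68.8, 76.9 and 73.8 FPKM in the WT mice and at 29.2, 155 and 64.7 FPKM in MED13cTg fat. Mccc1 had the widest ratio between MED13cTg replicates 2 and 1, 15.8-fold, at 22.2, 35.5 and 29.6 FPKM in the WT mice and 6.18, 97.3 and 25.9 FPKM in MED13cTg fat. Mccc2 was at 44.3, 64.3 and 58.7 FPKM in the WT mice and at 19.9, 95.7 and 49.1 FPKM in MED13cTg fat, a ratio of 4.81 between the same 2 mice. Bcat1 stayed near 1 FPKM except in MED13cTg replicate 1, with 0.841, 1.06 and 0.994 FPKM in the WT mice and 0.172, 0.981 and 1.09 FPKM in MED13cTg fat.

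Ppm1k and the Bckdk entry parted from each other in MED13cTg replicate 1, the library with 13638 FPKM of germ cell markers. Whether Bckdk itself rose there cannot be read from a joint entry. Ppm1k was at 2.42, 3.12 and 3.00 FPKM in the WT mice and at 2.07, 4.45 and 2.87 FPKM in MED13cTg fat. The Bckdk entry, shared with Myst1, was at 35.1, 34.7 and 36.6 FPKM in the WT mice and at 65.3, 40.3 and 33.8 FPKM in MED13cTg fat. Their FPKM ratio was 14.5, 11.1 and 12.2 in WT and 31.6, 9.04 and 11.8 in MED13cTg fat. The log2 ratio was higher by 0.26 in MED13cTg fat (exact two-sided permutation p = 0.9, adjusted p = 0.9 over the 2 tissues), a difference that turned to -0.20 without MED13cTg replicate 1.

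The order of the 6 EWAT libraries by member level was set beside their order by marker sums, a comparison made after the values had been seen. From low to high adipocyte sum the libraries were MED13cTg replicate 1, WT 1, MED13cTg 3, WT 3, WT 2 and MED13cTg 2. In 5 members, Bckdha, Bckdhb, Ppm1k, Mccc1 and Mccc2, FPKM rose in exactly this order, against 5.45% of all genes tested. Bcat2 and Ivd departed from it in 1 of the 15 pairs of libraries, which made 7 of 10 with at most 1 departure, against 11.2% of all genes. These 7 members moved together in EWAT, with a Pearson r of 0.963 to 0.999 with the members' mean. They are therefore not 7 separate observations. Dbt departed in 2 of 15 pairs, Bcat1 in 5 and the Bckdk entry in 8. The sums of 6 macrophage and of 4 endothelial markers put the libraries in exactly the same order as the adipocyte sum, from 61.3 to 351 FPKM and from 9.80 to 230 FPKM, so these 3 marker lists cannot be told apart by it. For the epididymis sum 0 of 10 had at most 1 departure, against 5.33%. The adipocyte count partly fixed this one, since the 2 orders differ. A gene that followed the adipocyte order exactly, such as Bckdha, departed from the epididymis order in 9 of 15 pairs. Of the 22 other pathway genes 8 followed the adipocyte order exactly. The part of any of these marker levels in the differences between mice was not tested.

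**Figure D5:**
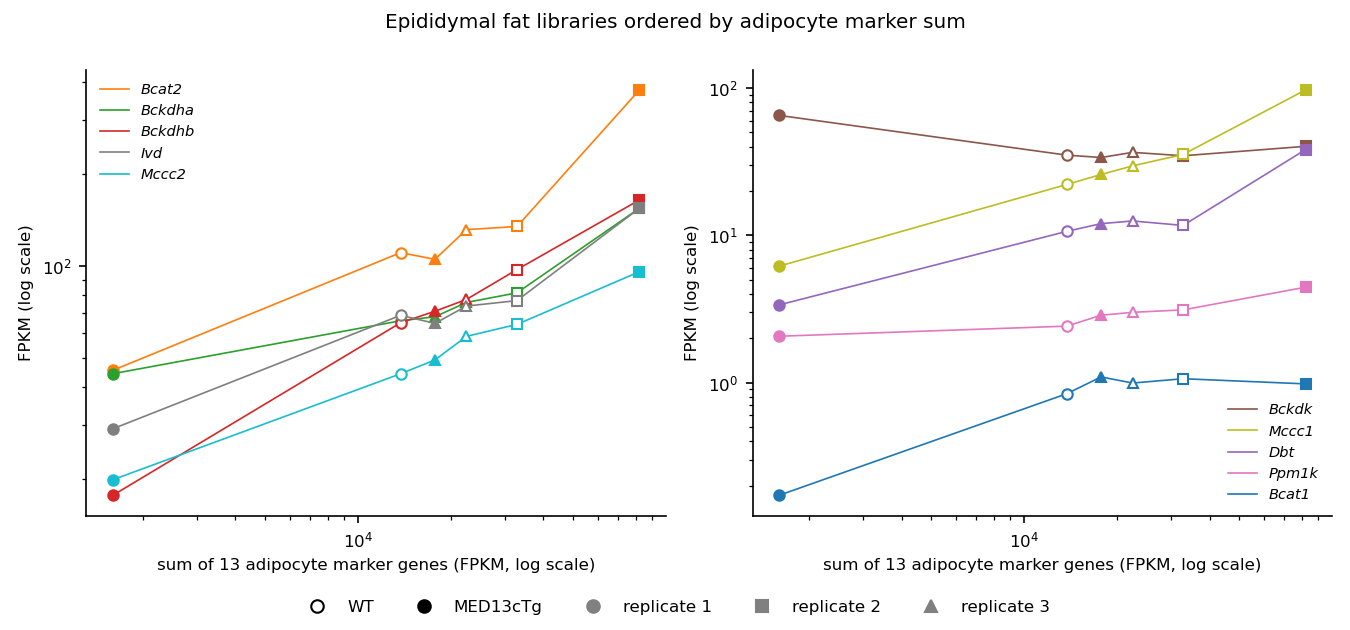
FPKM of the 10 members in each EWAT library (y axis) against the summed FPKM of 13 adipocyte markers (x axis), both on log scales, with 1 point per mouse and lines joining the points of a gene. MED13cTg (TG) replicate 1 has the lowest and replicate 2 the highest adipocyte sum, 1600 and 82042 FPKM.

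Of the 22 other pathway genes in EWAT, 20 lay below the WT range in MED13cTg replicate 1, beside 48.3% of all genes tested. In replicate 2, 16 lay above it, beside 38.2%, and in replicate 3, 18 lay within it, beside 55.8%. By limma 0 were called. On log2(FPKM + 1) 16 had a lower and 6 a higher mean, beside 49.3% of all genes lower. The count was 15 and 7 with median-of-ratios scaling and 17 and 5 with quantile normalization. By mean FPKM 9 were lower and 13 higher (59.1%), near the 58.2% of all genes that were higher. Dld, in contrast to most, lay within the WT range in MED13cTg replicate 1, with 44.2, 73.6 and 63.2 FPKM in the WT mice and 50.7, 124 and 56.2 FPKM in MED13cTg fat. Klf15 was at 18.8, 21.4 and 22.2 FPKM in the WT mice and at 4.77, 43.6 and 20.5 FPKM in MED13cTg fat. Slc25a44 was at 12.98, 14.51 and 12.93 FPKM in the WT mice and at 8.89, 26.6 and 13.7 FPKM in MED13cTg fat, the same low, high and middle order as Bckdha and Bckdhb.

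Slc3a2 was the gene among the 22 whose groups did not overlap in EWAT, 1 of 22 beside 7.8% of all genes with every MED13cTg library below. It encodes the heavy chain that carries the large neutral amino acid transporter SLC7A5 to the cell surface. Slc3a2 was at 196, 169 and 194 FPKM in the WT mice and at 71.8, 54.8 and 160 FPKM in MED13cTg fat (log2 fold change -1.11, standard error 0.43, unadjusted p = 0.0444, limma adjusted p = 0.738). Its partner Slc7a5 was at 320, 279 and 315 FPKM in the WT mice and at 84.7, 4.49 and 302 FPKM in MED13cTg fat. Slc7a5 departed from the order of the epididymis sum in 1 of 15 pairs of libraries and Slc3a2 in 2 of 15. Of the other transport genes Slc7a8 departed in 3, and Slc43a1, Slc43a2 and Slc25a44 in 11 each. At most 1 departure was found in 5.33% of all genes tested, and no share was computed for 2. The part of the epididymis level in the differences of Slc3a2 and Slc7a5 was not tested.

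Levels in WT mice are given side by side for the 2 tissues, without a test, since each table was estimated separately and the EWAT libraries hold epididymis genes. FPKM is per length, so members can be ranked within a tissue. In WT ventricles the highest means were those of Bckdha at 219.5 and Ivd at 209 FPKM, which lie within each other's spread, and next came Bcat2 at 108 FPKM. Bckdhb at 74.4, Mccc1 at 69.5, Mccc2 at 53.4 and the Bckdk entry at 51.3 FPKM followed with overlapping libraries between neighbours, then Dbt at 33.2 and Ppm1k at 28.8 FPKM, also overlapping, and Bcat1 at 0.575 FPKM. In WT EWAT Bcat2 led at 126 FPKM. Bckdhb at 80.0, Bckdha at 74.5 and Ivd at 73.2 FPKM overlapped in their libraries. Mccc2 at 55.7 FPKM lay apart from its neighbours, the Bckdk entry at 35.5 and Mccc1 at 29.1 FPKM overlapped, and Dbt at 11.6 FPKM lay below them. Ppm1k was at 2.85 FPKM in WT EWAT and at percentile 49.1 to 52.5 of the genes of a library, whereas in WT ventricles it was at percentile 84.1 to 86.8. Bcat1 was the lowest member in both tissues.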

How the data were processed

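RNA from the ventricles and EWAT of WT and MED13cTg mice was made into libraries from 1 µg of total RNA (Illumina TruSeq), per the labels, and the study's methods give a smaller amount and a wider age range than the labels. The authors aligned the reads with TopHat (build mm9, per the submitters' processing notes) and estimated FPKM per gene with Cufflinks at default settings, with versions not given in the sources used here. Each tissue has its own deposited table of FPKM, with 23042 entries, of which 31 name no gene and were left out, and 341 join several symbols, so that the values of their genes are uncertain. The authors' group means and their fold of MED13cTg over WT, and 1 unnamed column of 7 values in the EWAT table, were not used.

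Absolute depth is unknown from FPKM. Relative depth, taken as the commonest ratio to WT replicate 1 among genes below 0.15 FPKM, was 0.923 to 1.02 in ventricles and 0.712 to 1 in EWAT, and is imprecise.

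Genes that averaged 1 FPKM or more in the 6 libraries of their tissue were tested on log2(FPKM + 1), which understates the change of low genes, with limma 3.58.1 in R 4.3.3 (lmFit, eBayes with a trend), Benjamini-Hochberg adjustment and a threshold of 0.05, each tissue on its own. Intervals are 95% limma intervals. Other values and plots came from Python 3.11.15 with pandas 2.3.3, scipy 1.17.1 and matplotlib 3.10.9. The limma code was tested on simulated data with known changes. Of 100 genes changed by log2 1 it recovered 58 in ventricles and 63 in EWAT, and of 100 changed by log2 2 it recovered 92 and 82. All simulated libraries had the spread of the WT libraries, unlike MED13cTg EWAT replicates 1 and 2. Smaller changes such as those of the members were not simulated.

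The members, the lists, the library sets and the tests were chosen with earlier results of these data known. Named are the 10 members, Med13, Dld, Slc25a44, Klf15, pathway genes whose groups did not overlap or that were called, and the 5 genes most like the members' mean. Other genes named for an unadjusted p, a sign or a partner (Echs1, Aldh6a1 and Slc7a5, and transport and marker genes) were chosen after their values were seen. The values of 1 gene of the pathway lists are not reported here.

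The replicate numbers come from the labels. Deviations from the group means correlated between same-numbered EWAT libraries (0.35, 0.31 and 0.15 across genes), so these numbers were taken as a possible pairing of the EWAT libraries. Differently numbered EWAT libraries gave -0.42 to 0.16, and WT replicate 3 with MED13cTg replicate 2, at 0.162, exceeded WT replicate 3 with MED13cTg replicate 3, at 0.150. The correlations therefore do not settle a pairing. The main fit and the permutation test did not use it, and the replicate block was an alternative only. Nothing in the labels says that libraries of 1 number share a litter or day.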

Additional observations from a re-analysis of the deposited data

How the results depend on the processing

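The 0 calls among the members held under every alternative with an adjusted p, in both tissues, and at an unadjusted p under 0.05 there were 3 in ventricles (2 to 7 over the alternatives) and 0 in EWAT. The 7 came with array weights, where 1861 of all 12576 genes were lower and 1637 higher at that unadjusted p. Depth is unknown, and 3 mice per group limit the precision. In ventricles the sign of a member changed for Bcat1 only, and the median over the 10 genes, -0.45, was -0.32 with the library set as a covariate and -0.45 to -0.32 with each library left out. The log2 ratio of Bckdk to Ppm1k in ventricles was 0.24 to 0.35 with each library left out. Over all ventricle genes 7 were called, 30 without the filter, 3 with a filter at 5 FPKM, 15 with array weights, 594 at an unadjusted p, and 4 to 9 with each library left out. With the replicate block 4 were called in ventricles, where same-numbered libraries did not deviate together (correlations of 0.083, -0.19 and 0.14), and the block changed no member's call. In EWAT 2 genes were called, 1 without the filter, 0 with array weights, 0 with the replicate block, 19 without MED13cTg replicates 1 and 2, 189 at an unadjusted p, and 1 to 5 with each library left out. The fit without both replicates leaves 1 MED13cTg library, assumed to vary like the WT group, and the array weights in EWAT had not converged. The EWAT median over the members was -0.74 to 0.45 with each library left out.

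Among the members tested, 0 values in ventricles and 26 in EWAT turned in sign under an alternative. In EWAT Bcat2 was 0.029 with median-of-ratios scaling, 0.0080 with quantile normalization and 0.26 with array weights. Quantile normalization also turned Dbt to -0.10 and Ppm1k to -0.080. Array weights turned Bckdhb to 0.11, Ivd to 0.16, Mccc1 to 0.32 and Mccc2 to 0.0093. Without MED13cTg replicates 1 and 2, Bckdha was -0.12 and Bckdk -0.067. With each EWAT library left out, Bcat2 ranged from -0.85 to 0.67, Bckdha from -0.43 to 0.46, Bckdhb from -1.12 to 0.45, Dbt from -0.74 to 0.84, Ppm1k from -0.16 to 0.26, Ivd from -0.73 to 0.45, Mccc1 from -1.09 to 0.80, Mccc2 from -0.79 to 0.31 and the log2 ratio of Bckdk to Ppm1k from -0.20 to 0.55. The cause of these changes was not tested.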

Other observations

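The genes whose pattern was most like the mean of the 10 members were found over the 12 libraries, with each gene centred on its tissue mean, among 11924 genes tested in both tissues. They were chosen for this likeness, and no p is given. Genes were not scaled per tissue, and the members' median varied more in EWAT (pooled SD 0.86 on the log2 scale) than in ventricles (0.12). The likeness over the 12 libraries therefore rests mostly on EWAT, where MED13cTg replicates 1 and 2 lay furthest from the others. Snx21, a sorting nexin, had a Pearson r of 0.989 and a Spearman rho of 0.951 over the 12 libraries, with an r of 0.969 in the ventricle and 0.992 in the EWAT libraries. It was at 19.9, 23.1 and 22.9 FPKM in WT ventricles, 17.4, 18.9 and 19.7 FPKM in MED13cTg ventricles, 10.5, 11.98 and 13.3 FPKM in WT EWAT and 6.22, 20.9 and 11.2 FPKM in MED13cTg EWAT. Tmem143 had an r of 0.989 and a rho of 0.951. Acadm, the medium-chain acyl-CoA dehydrogenase of fatty acid oxidation, had an r of 0.985 and a rho of 0.944, with 650, 889 and 998 FPKM in WT ventricles and 644, 605 and 740 FPKM in MED13cTg ventricles. Like Dbt, Ivd and Mccc1, Acadm was low in WT replicate 1. Txnrd2, the mitochondrial thioredoxin reductase, had an r of 0.983 and a rho of 0.888, and Podn, an extracellular matrix proteoglycan, an r of 0.983 and a rho of 0.874. Within the ventricle libraries r was lower, at 0.919 for Tmem143, 0.864 for Acadm, 0.843 for Txnrd2 and 0.871 for Podn. Within the EWAT libraries it was 0.995 to 0.999 for these genes. Of the members tested, Mccc1 was the closest to the mean that it enters, with an r of 0.992, Ppm1k had an r of 0.862, and the Bckdk entry had an r of -0.45, which was 0.92 within the ventricle libraries and -0.62 within the EWAT libraries, where the entry was high in MED13cTg replicate 1.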
